A study of Mus musculus with 69 samples.

Results

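A set of 9 genes of the thyrotropin axis, of the pars tuberalis and of retinoid handling were followed through 69 RNA-seq libraries of female mice, among the 55964 gene IDs of the count tables. They were picked by symbol, because several of them had stood out in the hypothalamus of these mice, so the hypothalamus values of the genotypes are given here as a description and not as a test. The mice carried a Zeb1 allele whose miR-200a/b sites in the 3′ UTR had been mutated, so that the microRNAs no longer bind its transcript. Wild-type (WT), heterozygous (200H) and homozygous (200M) females were compared, all on a C57BL/6J background and all taken at proestrus, and the lines came from the ES-cell clones 6B6 and 3C5. The younger cohort held virgin females of 8 to 12 weeks and the older cohort females of 28 to 36 weeks taken after a breeding trial. The allele is present in every cell of the animal, and no label ties a library to a clone line, a litter or an animal sampled in another tissue.

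Pituitary, hypothalamus and ovary were each sampled as bulk tissue in both cohorts, with 4 libraries for each genotype except 3 for young WT pituitary, older 200M pituitary and older 200M hypothalamus. Total counts per library ranged from 3321845 to 5143128 in young hypothalamus, the shallowest set, and from 10189605 to 13917738 in older hypothalamus. They ranged from 7560888 to 13342430 in young and 4527753 to 12957678 in older pituitary, and from 6337205 to 12896366 in young and 7985206 to 14655095 in older ovary. The cohorts also differed in library chemistry and in counting, so age cannot be told apart from method and levels were not compared across cohorts. Zeb1 itself checked the labels of WT against mutant pituitary. In young pituitary it was at 98.5, 95.6 and 95.6 CPM (counts scaled to a common library size by edgeR's TMM) in WT, 127 to 135 CPM in 200H and 132 to 141 CPM in 200M. Its log2 fold change was 0.52 (SE 0.06, adjusted p = 2.39e-05 by edgeR's quasi-likelihood test) in young 200M and 0.55 (SE 0.09 with adjusted p = 0.000833) in older 200M. In hypothalamus Zeb1 was not raised, with 177 to 211 CPM in young 200M against 219 to 226 CPM in WT, and it did not pass the test there or in ovary. The labels of those tissues, and of 200H against 200M in young pituitary, were thus not checked by it.

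Thyrotropin is a dimer of the alpha subunit shared with the gonadotropins, encoded by Cga, and of its own beta subunit, encoded by Tshb. Thyrotrophs of the anterior pituitary release it under thyrotropin-releasing hormone, which they sense through the receptor Trhr, and thyroid hormone returns to silence Tshb through the receptor encoded by Thrb. A separate set of thyrotrophs lies in the pars tuberalis, the thin sheet of pituitary tissue around the median eminence. These cells read night length through the melatonin receptor Mtnr1a, and their thyrotropin acts on Tshr of the neighbouring tanycytes, which line the floor of the third ventricle and use the deiodinase Dio2 to convert thyroxine to triiodothyronine. Retinoid handling has been linked to the same tanycytes: Stra6 takes up retinol from its carrier, Lrat esterifies retinol for storage, and Crabp1 binds retinoic acid inside the cell.

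The microRNAs that the Zeb1 allele escapes fall into 2 seed groups, and their sequences are shown because a transcript with a matching site could be held by the same microRNAs. The mature sequences of the mouse family, from RefSeq, are given with the seed, bases 2 to 8, in capitals. The first pair shares one seed and the other members share the second.
mmu-miR-141-3p: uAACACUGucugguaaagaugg
mmu-miR-200a-3p: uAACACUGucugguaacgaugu
mmu-miR-200b-3p: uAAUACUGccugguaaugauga
mmu-miR-200c-3p: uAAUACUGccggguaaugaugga
mmu-miR-429-3p: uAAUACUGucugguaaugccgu

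The 3′ UTRs of the 9 genes, read from GRCm38 with the GENCODE annotation, were searched on the transcript strand for CAGTGTT and CAGTATT, the complements of the seeds. The letters of the 2 motifs cannot occupy the same place. Of the 9 genes 4 held a match, namely Lrat, Dio2, Thrb and Tshr. Among 20729 mouse 3′ UTRs, 24.4% held either motif, and the share rises with length. The UTRs of Lrat (4394 bases), Dio2 (4860 bases) and Thrb (4424 bases) belong to a length class of 4000 to under 5000 bases in which 63.9% of 570 UTRs hold a match, and the UTR of Tshr (1925 bases) to one of 1500 to under 2500 bases in which 38.5% of 3200 do. No match was found in the windows read for Tshb, Trhr, Mtnr1a, Stra6 and Crabp1. The matched sites, with the complement of the seed in capitals, were as follows, each in the 3′ UTR of its gene and written along the transcript.
Lrat, chr3:82895777-82895806, minus strand: tggagacctagCAGTGTTtaaagcatgcct
Lrat, chr3:82895073-82895102, minus strand: gtcttattaccCAGTGTTctcctacaacaa
Lrat, chr3:82894800-82894829, minus strand: cctccagacatCAGTATTgtaggtaatagg
Tshr, chr12:91538908-91538937, plus strand: caacaactggcCAGTGTTcatcatactcca
Dio2, chr12:90727690-90727719, minus strand: tctaagttctcCAGTGTTttaaattctgta
Dio2, chr12:90726125-90726154, minus strand: gtggggggggaCAGTATTgatgctattcat
Thrb, chr14:18036931-18036960, plus strand: tgagatgtagcCAGTGTTttataaggctaa
Thrb, chr14:18037852-18037881, plus strand: tattttgcaaaCAGTGTTaagtgatattgc
These are matches of letters and were not tested as binding sites.

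Levels per length separated the tissues. Divided by the exon length of each gene in kilobases, Tshb led in young pituitary, with a mean of 221 CPM per kb over 11 libraries, followed by Thrb at 64.4, Dio2 at 44.0 and Trhr at 5.70 CPM per kb, while the other 5 genes lay at 1.84 CPM per kb or less. In young hypothalamus Thrb led at 10.9 CPM per kb, and Dio2, Trhr and Tshb followed at 6.27, 6.18 and 5.25 CPM per kb. The spread of Tshb over libraries there, from 0 to 19.6 CPM, is wide enough that its place among its neighbours is not fixed. In young ovary the retinoid genes led, Lrat at 13.8 and Stra6 at 10.4 CPM per kb, and Tshb, Trhr and Mtnr1a were each under 0.5 CPM per kb. The tissues were thus distinct in these genes. Prl led the anterior pituitary list in young pituitary. The hypothalamic neuron list had none of its 16 genes under 0.1 CPM on average in any hypothalamus group. The same held in young WT and 200H ovary, so that count does not mark hypothalamus. The list summed to 715 to 808 CPM in young WT hypothalamus and 6.89 to 12.9 CPM in young WT ovary. In young WT pituitary it summed to 633 to 905 CPM, led by Pomc at a mean of 759 CPM.

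In young hypothalamus, Tshb and Lrat were higher in 200M than in WT in every library, and Dio2 was too. Tshb (ENSMUSG00000027857, chr3:102775465-102782718, minus strand) had 1, 0, 0 and 3 counts in the 4 WT libraries, 0, 20, 5 and 6 counts in 200H and 71, 16, 16 and 18 counts in 200M. Scaled to CPM these were 0.263, 0, 0 and 0.638 in WT, 0, 5.03, 1.52 and 1.73 in 200H, and 19.6, 4.03, 4.65 and 3.35 in 200M. One 200M library, replicate 1, stood at 19.6 CPM and the other 200M libraries between 3.35 and 4.65 CPM, and 200H overlapped both other groups. The fitted log2 fold change of 200M over WT was 4.81 (SE 0.75), a value that depends on the few WT counts. It was 3.85 without 200M replicate 1 and 6.03 without WT replicate 4, which held 3 of the 4 WT counts.

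Lrat (ENSMUSG00000028003, chr3:82892579-82903973, minus strand), which makes retinyl esters, was at 1.58, 1.32, 0 and 4.47 CPM in young WT hypothalamus, 6.98, 13.1, 6.38 and 12.4 CPM in 200H and 59.2, 9.08, 15.4 and 16.0 CPM in 200M. Both mutant groups lay wholly above WT, and 200M replicate 1 was again the highest. The log2 fold changes were 2.31 (SE 0.41) in 200H and 3.63 (SE 0.55) in 200M, and the latter was 2.78 without 200M replicate 1. Lrat is the gene with the most seed matches printed above, and their part in its level was not tested. Dio2 (ENSMUSG00000007682, chr12:90724552-90738438, minus strand), the activating deiodinase, was at 25.3, 28.0, 17.6 and 21.7 CPM in WT, 25.0, 36.7, 22.8 and 52.0 CPM in 200H and 97.4, 32.3, 44.7 and 33.8 CPM in 200M, a log2 fold change of 1.16 (SE 0.25) in 200M. Its 200M libraries did not overlap WT, while 200H overlapped both.

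Of the 8 members tested in young 200M hypothalamus, 2 passed the test across all genes, Tshb and Lrat, where 0.0200% of 14988 genes did. In young 200H it was Lrat alone of 7, where 0.0202% of 14877 genes did. These shares were part of how the genes came to be listed and nothing is read from them. In young 200M 3 members, Tshb, Lrat and Dio2, had libraries that did not overlap WT (3.24% of 17533 genes either way) and in young 200H 1 did (2.52%). DESeq2 called none of the members in either comparison, and over all genes it called 0 of 32313 in 200M and 1 of 32146 in 200H. The edgeR calls in 200M were lost when WT replicate 1, 2 or 3 was left out. The third gene called in young 200M was Prl, at 0.277 to 3.53 CPM against 4.22 to 24.5 CPM in WT. Prl was also called by edgeR in young 200H, at 0 to 5.49 CPM.

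The other members did not separate the young genotypes, but 200M replicate 1 stood apart in most of them. Tshr, the thyrotropin receptor, was at 18.0 CPM in that library and at 4.52 to 7.62 CPM in the other 11. Thrb was at 103 CPM there against 58.3 to 79.6 CPM, Crabp1 at 8.58 CPM against 1.34 to 4.33 CPM, and Stra6 at 9.68 CPM against 1.22 to 7.06 CPM. Trhr went the other way, at 15.5 CPM against 20.1 to 25.0 CPM, and Mtnr1a, at 0.553 CPM, lay inside the range of 0.251 to 2.38 CPM over all 12. That library therefore had the highest level of 7 of the 9 genes and the lowest of 1.

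**Figure D1:**
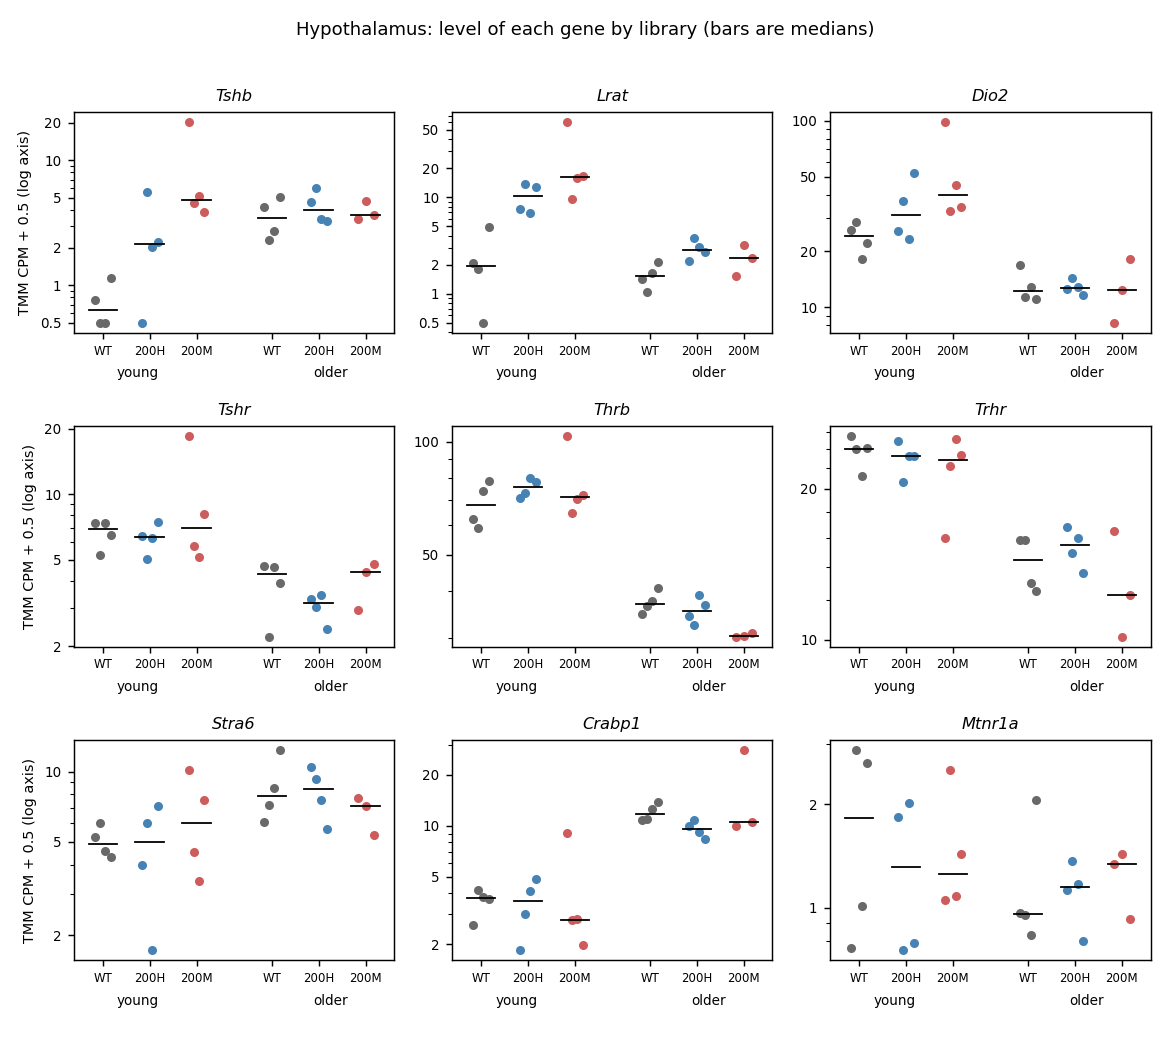
Level of each of the 9 genes in every hypothalamus library, as TMM-scaled CPM plus 0.5 on a log axis, by cohort and genotype. Points are libraries and bars are group medians. Tshb, Lrat and Dio2 are higher in all 4 young 200M libraries than in young WT, one young 200M library is the highest in 7 panels, and the older groups lie closer together.

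In older hypothalamus the pattern in Tshb was not seen. It was at 3.71, 1.80, 2.23 and 4.59 CPM in WT, 4.13, 5.45, 2.86 and 2.78 CPM in 200H and 2.89, 4.23 and 3.14 CPM in 200M, with a log2 fold change of 0.14 (SE 0.31) in 200M. All 3 groups overlapped. Lrat was at 0.929, 0.541, 1.16 and 1.63 CPM in WT, 1.71, 3.31, 2.52 and 2.19 CPM in 200H and 1.03, 2.71 and 1.85 CPM in 200M. Its 200H libraries lay above WT (log2 fold change 1.17, SE 0.31, in a comparison where 1.75% of genes had groups apart) and its 200M libraries overlapped both (0.79, SE 0.39). Dio2 ran from 7.75 to 17.6 CPM with no separation. Thrb was at 29.8 to 30.4 CPM in 200M, under the 34.2 to 40.2 CPM of WT, and groups that far apart in one direction or the other were found for 16.0% of 15559 genes. No member passed the test in older hypothalamus by edgeR, where 0.00622% of 16067 genes did in 200M and 0 of 15910 in 200H. The 1 gene called in 200M was the pituitary hormone gene Gh, at 6.52 to 7.93 CPM against 0 to 0.495 CPM in WT. Prl, which was not called there, was at 6.77 to 10.7 CPM in 200M and 0 to 1.98 CPM in WT, opposite to the young direction. None passed by DESeq2 either, where 619 of 30980 genes did in 200M and 5 of 31528 in 200H. At an unadjusted edgeR p under 0.05 there was 1 member in 200M and 2 in 200H. Over all genes there were 2904 of 16067 in 200M and 445 of 15910 in 200H. Older libraries were counted without strand, and the span of Tshb overlaps that of Tspan2 on the opposite strand. Reads from the overlap cannot be assigned to one gene by strand there, whereas the young counts used the strand. The spans of Lrat, Dio2, Thrb and Stra6 also overlap genes on the opposite strand.

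Whether the genes rose together was examined as the correlation of log2(CPM + 0.5) between members over hypothalamus libraries. As a set they did not rise together in either cohort: over the 36 pairs the mean Pearson r was 0.14 in the 12 young libraries (mean Spearman rho 0.08) and 0.08 in the 11 older ones (mean rho 0.06). In the young libraries 22 pairs lay above 0, 13 were over 0.5 and 6 under -0.5, from -0.74 to 0.86. In the older libraries 21 pairs lay above 0, 4 were over 0.5 and 1 under -0.5. Without the 2 libraries farthest from the median of Tshb, which in the young were 200M replicate 1 and 200H replicate 1, the young mean r was 0.01, and leaving out 200M replicate 1 alone also gave 0.01. Library, depth and dissection are shared by all points of a library, and no p is given.

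Within the set, Tshb, Lrat and Dio2 formed a trio in the young libraries. Tshb and Lrat had r = 0.86 (rho 0.87), Tshb and Dio2 0.82 (rho 0.77), and Lrat and Dio2 0.82 (rho 0.83). These values stayed at 0.91, 0.68 and 0.78 without the 2 farthest libraries and at 0.66, 0.64 and 0.71 after the genotype means were removed. In the older libraries the same pairs had r of 0.65, 0.21 and 0.23, and the first was 0.19 without the 2 farthest libraries. Trhr ran against Tshb, with r = -0.64 (young) and r = -0.20 (older), and the young value was -0.18 without the 2 farthest. Mtnr1a, the melatonin receptor, followed Tshb in the older libraries (r = 0.66, rho 0.75) and not in the young (r = -0.27). Thrb and Tshr had r = 0.75 in the young, where 200M replicate 1 was highest in both, and -0.13 in the older libraries.

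**Figure D2:**
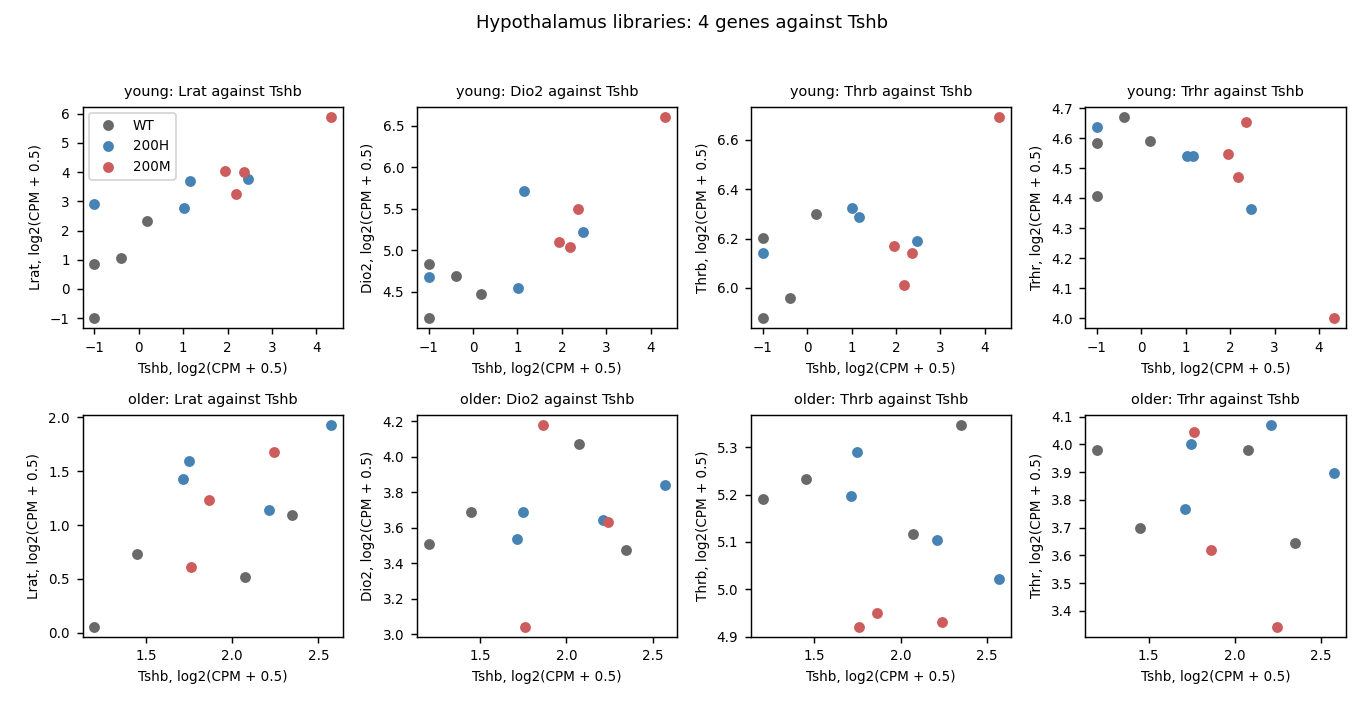
Level of Lrat, Dio2, Thrb and Trhr against Tshb in each hypothalamus library, both axes as log2(TMM-scaled CPM + 0.5), young cohort above and older cohort below, coloured by genotype. Lrat and Dio2 climb with Tshb among the young libraries, and the single young 200M library at the right edge sets much of the slope for Thrb and Trhr.

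**Figure D3:**
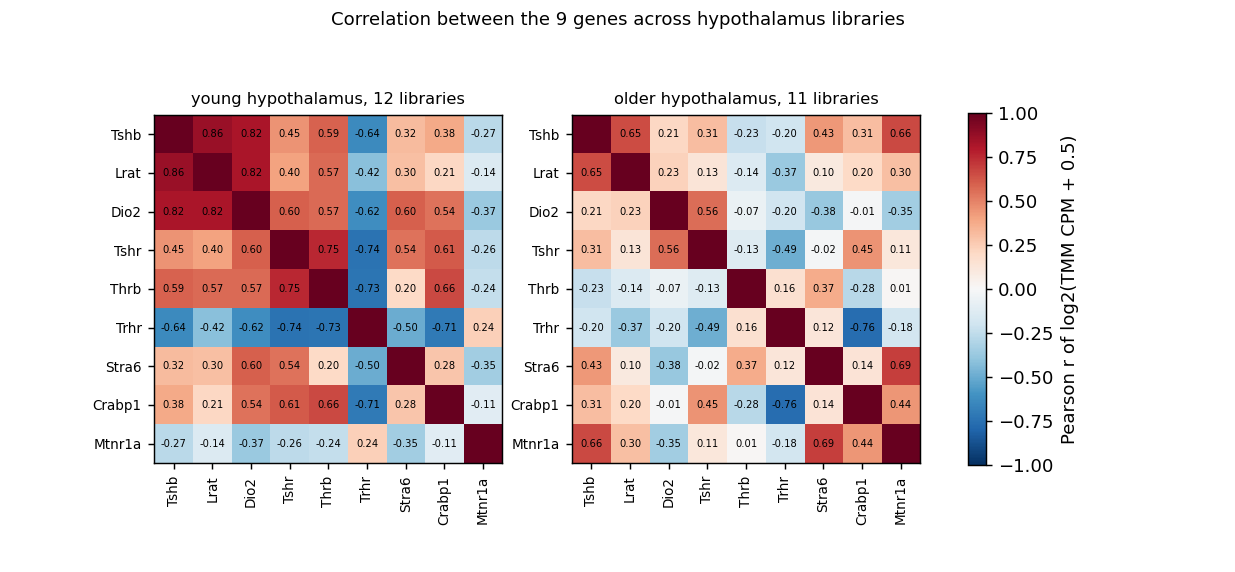
Pearson r between each pair of the 9 genes over the 12 young and the 11 older hypothalamus libraries, from log2(TMM-scaled CPM + 0.5). The young block of Tshb, Lrat and Dio2 holds values of 0.82 to 0.86, and the older values of the same pairs are 0.21 to 0.65.

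These correlations were set beside those of all genes. Of 14226 genes, which were those with at least 1 CPM on average in both cohorts and the members whatever their level, 6.20% had r over 0.5 with Tshb in the young and 4.75% in the older libraries, with a median of 0.01 in each. Ranked by the smaller of the young and older r, the 10 genes most like Tshb included Cga, Ces1d, Ptpn6, Zfp963, Lrat, Tmem86a, Fndc3c1, Eps8l1 and Cybrd1. Cga, the partner subunit of Tshb in the hormone, ranked first with r = 0.69 (young) and r = 0.77 (older). Lrat, at rank 6, had 0.86 and 0.65. The other members ranked from 507 for Stra6 to 13885 for Trhr. Tshb and Lrat were chosen on these libraries, so the ranks are a description. Cga was at 1.02 to 7.63 CPM in young WT, 0 to 12.7 CPM in 200H and 3.53 to 19.4 CPM in 200M, and the groups overlapped.

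Markers of neighbouring tissue were read in the same libraries. The summed level of the pars tuberalis and melatonin list, 15 genes without the members, was 860 CPM in young 200M replicate 1 and 597 to 707 CPM in the other young libraries. In that list Cck was at 51.2 CPM against 14.8 to 25.6 CPM. The sum was led by Hlf in the young groups, at means of 219 to 231 CPM, and by Chga in the older ones, at 330 to 457 CPM. Mtnr1b was under 0.1 CPM on average in every hypothalamus group. How far the sum reflects pars tuberalis was not tested. In 200M replicate 1 the tanycyte list summed to 707 CPM against 514 to 630 CPM. The choroid plexus list summed to 255 against 160 to 204 CPM, and the hypothalamic neuron list to 614 against 696 to 808 CPM. Prlr led the choroid plexus list, at a mean of 141 CPM in young 200M, while Ttr of that list was at 1.94 CPM in 200M replicate 1. With 200M replicate 1 included, Tshb correlated with the pars tuberalis list at r = 0.72 in the young libraries, and at 0.36 in the older ones. With the tanycyte list the values were 0.56 and 0.43. The pituicyte list, which shares Rax, Col25a1, Adm, Scn7a and Vcan with the tanycyte list, had r of 0.29 and 0.65. The list of leptomeninges and fibroblasts had 0.14 and 0.52, the hypothalamic neuron list -0.55 and 0.43 and the anterior pituitary list 0.02 and 0.20. The part of dissected tissue in the Tshb values was not tested, and in bulk tissue fewer cells of a type and less RNA per cell cannot be told apart.

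Prl, the main hormone transcript of the young anterior lobe, was set beside Tshb. In young pituitary Tshb amounted to 0.0773% to 0.640% of Prl, and at the highest of these ratios of whole pituitary the Prl found in young hypothalamus goes with at most 0.157 CPM of Tshb. In 200M replicate 1, where Prl was at 0.277 CPM, that ratio gives 0.00177 CPM beside the 19.6 CPM measured. In the older libraries the same reckoning gave at most 0.111 CPM, beside measured values of 1.80 to 5.45 CPM. It holds only for RNA with the Tshb to Prl ratio of whole pituitary, and the part of tissue with another ratio was not tested.

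In pituitary, 2 members were higher in both mutants and in both cohorts, Dio2 and Trhr, while Thrb was lower in young 200M and Tshb itself did not pass the test. In the young cohort 7 members reached the expression filter, and 4 of the 7 passed in 200M, where 21.5% of 18199 genes did. Of these 3 were higher, as were 11.5% of all genes, and 1 was lower, as were 10.0%. Groups of libraries without overlap were found for 3 members, where 30.0% of 17753 genes had such groups. In young 200H 3 of 7 passed, where 12.3% of 18051 genes did, all of them higher (6.56% of genes), and groups did not overlap in 4 members (23.9% of genes). Lrat is counted among those that passed in both young comparisons, with 2 to 4 counts a library in WT. It reached the filter through its mutant libraries, so its passing is not read as a result beside these shares. In older pituitary 2 of 5 passed in 200M, where 21.4% of 14711 genes did, and 2 of 5 in 200H, where 12.2% of 14922 genes did. All were higher, as were 11.7% and 7.09% of genes, and they were also the members whose groups did not overlap, as for 31.0% and 17.2% of 15221 genes. The median log2 fold change over the members tested was 0.61 in young 200M and 0.47 in older 200M, where the medians over all genes were 0.00 and -0.01.

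Trhr (ENSMUSG00000038760, chr15:44196135-44235912, plus strand), the receptor through which thyrotrophs sense thyrotropin-releasing hormone, was at 9.71, 13.2 and 13.8 CPM in young WT, 18.9, 17.7, 22.6 and 24.9 CPM in 200H and 26.4, 27.7, 29.6 and 21.7 CPM in 200M. Every mutant library lay above every WT library. The difference from WT on the log2 scale was 1.13 in 200M (SE 0.14, adjusted p = 4.14e-05 by edgeR) and 0.79 in 200H (SE 0.16 with adjusted p = 0.00608). In the older cohort Trhr was at 6.53, 5.13, 3.44 and 4.14 CPM in WT, 10.1, 9.91, 8.52 and 9.84 CPM in 200H and 10.2, 15.1 and 13.5 CPM in 200M, again without overlap. The log2 fold changes were 1.42 (SE 0.22 with adjusted p = 0.000826) and 0.98 (SE 0.19 with adjusted p = 0.00493). The older 200M libraries also lay above the 200H libraries, as in 10.3% of 15221 genes either way, but the difference of 0.43 (SE 0.16) did not pass (adjusted p = 0.360). Its 3′ UTR held no seed match.

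Dio2 was at 172, 202 and 197 CPM in young WT pituitary, 302, 257, 277 and 259 CPM in 200H and 282, 267, 287 and 316 CPM in 200M. It rose by 0.61 in 200M (SE 0.07 with adjusted p = 3.00e-05) and by 0.54 in 200H (SE 0.08 with adjusted p = 0.000804) on the log2 scale. In the older cohort it was at 100, 92.0, 101 and 86.5 CPM in WT, 158, 133, 136 and 121 CPM in 200H and 178, 145 and 140 CPM in 200M. The log2 fold changes were 0.70 (SE 0.10 with adjusted p = 0.000500) and 0.53 (SE 0.10 with adjusted p = 0.00328). No mutant library overlapped WT in either cohort. Dio2 and Trhr kept their calls in all 4 comparisons under every alternative tried.

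Tshb in young pituitary was at 103, 123 and 147 CPM in WT, 141, 116, 183 and 143 CPM in 200H and 192, 150, 143 and 138 CPM in 200M. The groups overlapped, and the log2 fold change of 0.34 in 200M (SE 0.12) did not pass by edgeR (adjusted p = 0.0551). It passed by DESeq2 (adjusted p = 0.0352), without 200M replicate 4 (0.40, edgeR adjusted p = 0.0343) and without WT replicate u, the library to which the labels give no number (0.48, edgeR adjusted p = 0.0163). In young 200H it was 0.24 (adjusted p = 0.318). Older Tshb was at 210, 175, 239 and 220 CPM in WT, 226, 249, 128 and 96.4 CPM in 200H and 214, 213 and 266 CPM in 200M. Its log2 fold changes were 0.13 (SE 0.12 with adjusted p = 0.458) in 200M and -0.26 (SE 0.24 with adjusted p = 0.535) in 200H. A pair of older 200H libraries, at 128 and 96.4 CPM, lay below all others.

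Thrb (ENSMUSG00000021779, chr14:17660261-18038090, plus strand), the receptor of thyroid hormone feedback, was at 491, 619 and 663 CPM in young WT, 378, 489, 207 and 425 CPM in 200H and 464, 422, 325 and 291 CPM in 200M. Neither mutant group overlapped WT. It fell by 0.64 on the log2 scale in 200M (SE 0.13 with adjusted p = 0.00315), and the same size of difference in 200H did not pass (SE 0.21 with adjusted p = 0.0601). The 200H difference passed without 200H replicate 2 (adjusted p = 0.0216) or without 200H replicate 3 (adjusted p = 0.0147), and with the 3 genotypes in one fit (adjusted p = 0.0447). In the older cohort Thrb was at 366, 370, 261 and 154 CPM in WT, 255, 135, 256 and 306 CPM in 200H and 208, 219 and 151 CPM in 200M. The groups overlapped and the log2 fold change of -0.58 in 200M (SE 0.25) did not pass (adjusted p = 0.119), but it did without WT replicate 4, the lowest WT library (-0.78, adjusted p = 0.00250).

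The retinoid members were low in pituitary. Lrat had 3, 2 and 4 counts in young WT, 13, 11, 20 and 13 counts in 200H and 5, 30, 16 and 8 counts in 200M. The 200H libraries lay above WT, and 200M overlapped it on the CPM scale, with 0.384 CPM in replicate 1 against up to 0.429 CPM in WT. Log2 fold changes were 1.96 in 200M (SE 0.65 with adjusted p = 0.0446) and 2.03 in 200H (SE 0.50 with adjusted p = 0.0174). Both calls were lost when any one WT library was left out (adjusted p = 0.0904 to 0.131 in 200M and 0.0529 to 0.0788 in 200H). Lrat dropped under the expression filter without 200M replicate 2, 3 or 4, or without 200H replicate 1, 3 or 4, and DESeq2 did not call it in 200M. Older Lrat, at 0 to 3 counts a library, was not testable. Stra6 was at 4.80, 3.36 and 6.75 CPM in young WT and at 8.61, 7.83, 6.15 and 8.50 CPM in 200M, a difference of 0.65 (SE 0.22) that did not pass (adjusted p = 0.0518). It passed without WT replicate u (0.93, adjusted p = 0.0157), without 200M replicate 3 (0.76, adjusted p = 0.0406) and with the 3 genotypes in one fit (adjusted p = 0.0481). Its older values were 0.47 (SE 0.29 with adjusted p = 0.275) in 200M and 0.75 (SE 0.29 with adjusted p = 0.123) in 200H.

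Tshr was at 1.31 to 3.20 CPM in the young pituitary libraries, with a log2 fold change of 0.22 in 200M (SE 0.36 with adjusted p = 0.719). Mtnr1a, at 0 to 0.679 CPM, and Crabp1, at 0 to 0.254 CPM, stayed under the expression filter there. Between the mutant genotypes no member passed in pituitary by edgeR with the filter or by DESeq2. By edgeR none of 7 passed in the young cohort (0.0383% of 18271 genes did) and none of 5 in the older cohort (0.121% of 14862 genes did). In the older cohort Thrb and Tshb passed by edgeR without the filter, where 549 of 29840 genes did. Thrb also passed without 200H replicate 2. In each cohort 1 member was at an unadjusted edgeR p under 0.05, where 1081 of 18271 and 1575 of 14862 genes were. Young and older effects of 200M were also compared by an interaction term, and none of 7 members passed by either tool (0.0273% of 18344 genes did by edgeR). The differences ran from -1.16 to 0.24 on the log2 scale. No member was at an unadjusted edgeR p under 0.05, where 1257 of 18344 genes were.

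**Figure D4:**
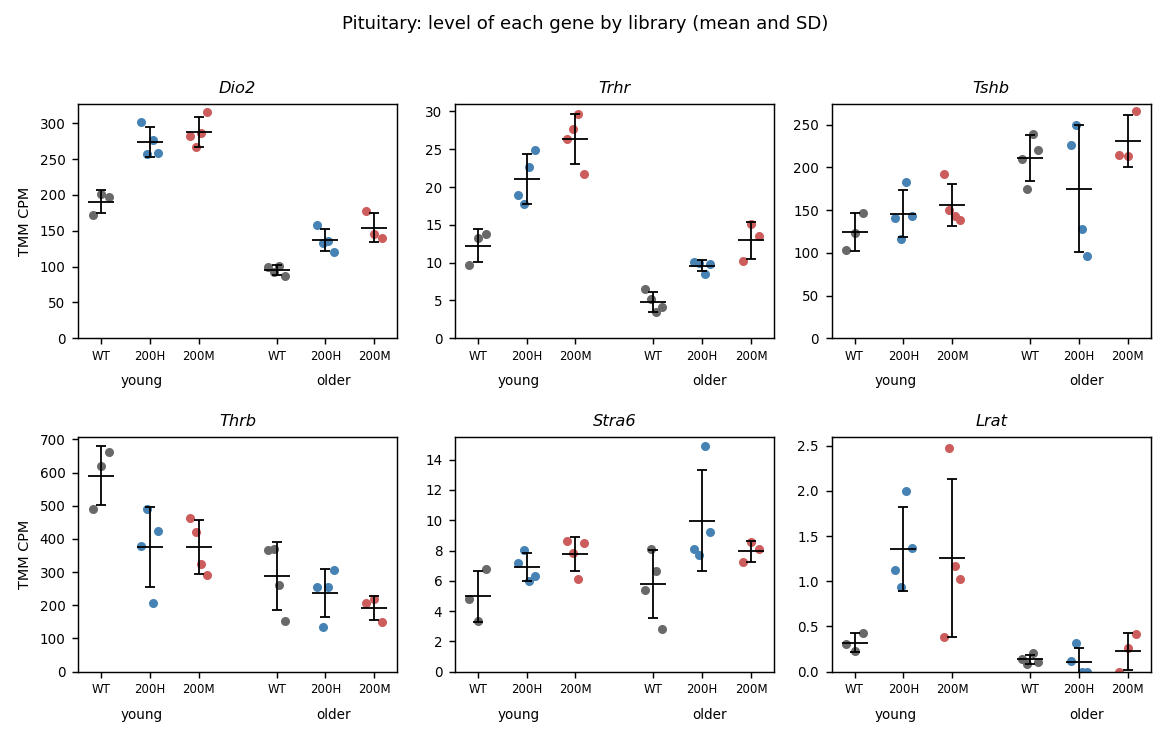
Level of Dio2, Trhr, Tshb, Thrb, Stra6 and Lrat in every pituitary library, in TMM-scaled CPM, by cohort and genotype. Points are libraries and bars are group means with the SD, cut at 0. Trhr and Dio2 lie above WT in every 200H and 200M library of both cohorts, Thrb lies below WT in the young mutants, and the Tshb groups overlap.

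Other genes of the same pathways were counted in 200M against WT pituitary. Of the thyroid axis list, 24 genes were tested in the young cohort, of which 7 passed as higher and 3 as lower, and 22 in the older cohort, of which 6 passed as higher and 1 as lower. Over all genes tested, 11.5% of the young cohort's passed as higher and 10.0% as lower, while 21.4% of the older cohort's passed in either direction and 11.7% as higher. These shares also stand beside the lists that follow, and nothing particular to a list is read from its counts. The median log2 fold change over the thyroid axis list was 0.12 and 0.08. Cga fell in both, with log2 fold changes of -0.66 (SE 0.08 with adjusted p = 3.72e-05) in the young and -0.81 (SE 0.11 with adjusted p = 0.000322) in the older cohort. Rxra, the retinoid X receptor that pairs with thyroid hormone receptors, rose by 0.53 and 0.41, and the coactivator Ncoa1 by 0.42 and 0.34. The older calls of Rxra and Ncoa1 were each lost without any one of the 200M libraries or of WT replicates 1 to 3 (adjusted p = 0.0592 to 0.133).

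Of 11 genes of the pars tuberalis and melatonin list tested in each cohort, 5 passed as higher and 1 as lower in the young and 3 as higher in the older cohort, with a median of 0.26 in each. Those higher in both were Adcy1, an adenylyl cyclase (0.70 and 1.65), Chga, the granule protein chromogranin A (0.55 and 0.53), and Hlf, a clock-controlled transcription factor (0.38 and 0.52). Of the retinoid list, 2 of 21 passed as higher and 2 as lower in the young, and 1 of 22 as higher and 4 as lower in the older cohort, with medians of -0.11 and -0.09. Cyp1b1, an oxidising enzyme that can act on retinol, rose by 0.68 and 0.95. The receptor Rarg had log2 fold changes of -0.44 and -0.36 and Rai1 of -0.27 and -0.38. Leaving out WT replicate u ended both young calls (adjusted p = 0.0572 for Rarg and 0.0662 for Rai1), and 200M replicate 2 or 3 that of Rai1. The older Rarg call (adjusted p = 0.0475) was lost by DESeq2 and without any one library other than WT replicate 1, and the older Rai1 call was lost without 200M replicate 2, 200M replicate 3 or WT replicate 3.

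Summed cell type markers also differed between WT and mutant pituitaries. The 15 genes of the anterior pituitary list summed to 163909 to 187084 CPM in young WT, 69778 to 98212 CPM in 200H and 67801 to 87615 CPM in 200M. In the older cohort they summed to 281110 to 313686 CPM in WT, 142905 to 223295 CPM in 200H and 138828 to 186920 CPM in 200M. Prl made up most of the young WT sum, at a mean of 142325 CPM, and was at 46237 CPM in young 200M. Of 13 genes of the list tested in young 200M, 5 passed as lower, among them Prl, Lhb and Cga. Of the rest 1 passed as higher and 7 did not pass, where 10.0% of all genes passed as lower and 11.5% as higher. The 8 pituicyte genes of the posterior lobe summed to 250 to 257 CPM in young WT and 297 to 341 CPM in 200M, and to 115 to 142 and 167 to 204 CPM in the older cohort. The list of 15 tanycyte genes, the cells in which Dio2 is best known, summed to 336 to 340 CPM in young WT and 409 to 456 CPM in young 200M libraries, and its groups overlapped in the older cohort (278 to 402 and 330 to 403 CPM). The pituicyte and tanycyte lists share Rax, Col25a1, Adm, Scn7a and Vcan, so their sums are not independent. The part of these cell types in the Dio2, Trhr and Thrb results was not tested.

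In ovary, where Stra6 and Lrat are the abundant members, none of 5 members tested passed in young 200M (2.58% of 19250 genes did), in young 200H (0.00510% of 19621) or in older 200M (2.71% of 17792) by edgeR. None passed in older 200H or between the young mutants either. At an unadjusted edgeR p under 0.05 there were 2, 1 and 4 members in the first 3 of these comparisons. Over all genes there were 3114 of 19250, 1384 of 19621 and 2944 of 17792. DESeq2 called none in the young comparisons and 2 in older 200M, Dio2 and Stra6, where it called 1329 of 36263 genes. The one edgeR call was Stra6 (ENSMUSG00000032327, chr9:58063788-58153996, plus strand) between older 200M and 200H, where 1.61% of 17855 genes passed.

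Older Stra6 was at 24.7, 39.6, 106 and 159 CPM in WT, 46.1, 35.7, 37.8 and 47.2 CPM in 200H and 20.0, 18.7, 25.6 and 14.2 CPM in 200M. The 200M libraries lay below all 200H libraries and overlapped WT, whose own libraries spread widely. Groups stood apart in this comparison for 9.67% of 17663 genes. Against 200H the log2 fold change was -1.10 (SE 0.20 with adjusted p = 0.0354), and it passed in 1 of the fits that left out a library, the one without 200M replicate 3, with adjusted p = 0.0785 to 0.125 in the rest. With the 3 genotypes in one fit it did not pass (adjusted p = 0.278). Against WT it was -2.06 (SE 0.54 with adjusted p = 0.0842), and it passed without WT replicate 1 (-2.38, adjusted p = 0.0257), by DESeq2 (adjusted p = 0.000922) and with the 3 genotypes in one fit (adjusted p = 0.0322). In young ovary Stra6 was at 45.8, 39.0, 47.8 and 59.7 CPM in WT and 19.5, 52.3, 17.3 and 25.9 CPM in 200M, with 200M replicate 2 among the WT values. The log2 fold change of -0.72 (SE 0.26) did not pass (adjusted p = 0.180), and without that library it was -1.19 (adjusted p = 0.000217). Stra6 overlaps Ccdc33 on the opposite strand. The counts of the older ovary were made without strand, so reads of the overlap cannot be assigned there.

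Lrat in ovary was at 97.4, 79.4, 87.2 and 74.7 CPM in young WT and 56.1, 92.0, 45.1 and 56.4 CPM in young 200M (log2 fold change -0.43, SE 0.16, adjusted p = 0.204). As with Stra6, 200M replicate 2 was the high one, and without it the value was -0.68 (adjusted p = 0.000833). In the older cohort the sign was the other way, at 33.1, 71.0, 31.0 and 49.1 CPM in WT, 36.0, 38.1, 60.9 and 47.2 CPM in 200H and 61.7, 64.4, 67.4 and 92.1 CPM in 200M. Neither the difference from WT (0.64, SE 0.26, adjusted p = 0.272) nor that from 200H (0.64, SE 0.20, adjusted p = 0.188) passed. The interaction of genotype and cohort, 1.05 (SE 0.35), did not pass either (adjusted p = 0.239), as it did for no member tested and for 0.197% of 21786 genes.

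Dio2 in older ovary was at 5.64, 7.00, 7.33 and 9.42 CPM in WT and 28.1, 8.87, 10.1 and 18.7 CPM in 200M, with a log2 fold change of 1.16 (SE 0.37) that did not pass by edgeR (adjusted p = 0.153) and passed by DESeq2 (adjusted p = 0.0373). Thrb was at 34.1, 23.9, 25.9 and 32.8 CPM in older 200M, below the 40.3 to 46.9 CPM of 200H (-0.59, SE 0.14, adjusted p = 0.0839 by edgeR and 0.0101 by DESeq2). Tshr in older ovary varied more between libraries than between genotypes. It was at 12.7, 1.11, 0.550 and 1.05 CPM in WT, 0.278, 5.92, 3.56 and 42.6 CPM in 200H and 7.28, 1.09, 62.4 and 6.35 CPM in 200M. The libraries highest in Tshr in each genotype were also the highest in Crabp1, at 1.59, 2.18 and 2.72 CPM. Trhr had 0 counts in all 12 older ovary libraries, which allows up to 0.205 to 0.376 CPM by 3 counts a library, counting error only, and Tshb did not exceed 0.969 CPM in any ovary library. The ovary cell type list also moved, summing to 10261 to 23495 CPM in older WT and 3142 to 10001 CPM in older 200M libraries, and its part in these values was not tested.

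**Figure D5:**
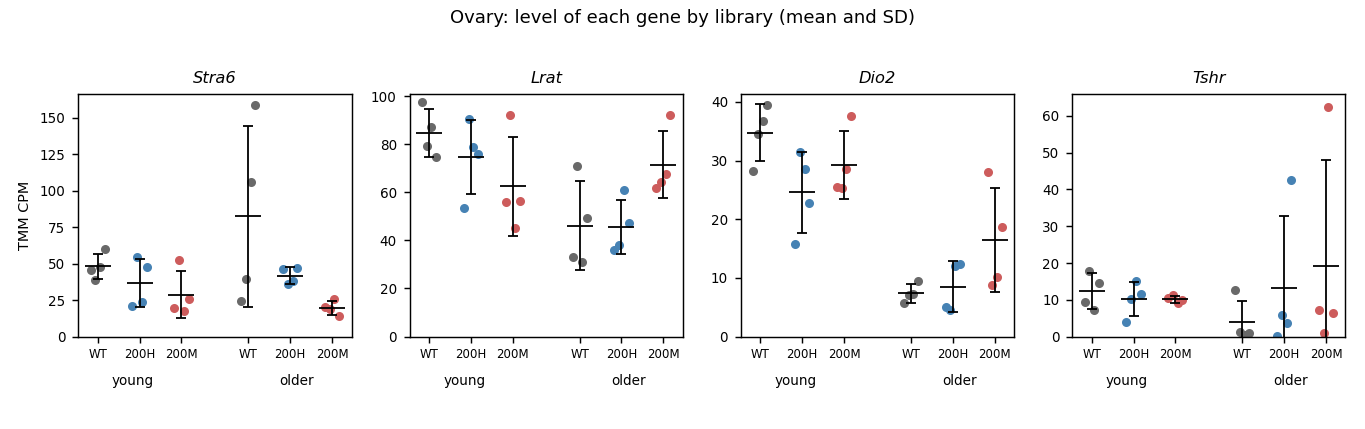
Level of Stra6, Lrat, Dio2 and Tshr in every ovary library, in TMM-scaled CPM, by cohort and genotype. Points are libraries and bars are group means with the SD, cut at 0. Older Stra6 lies lower in 200M than in 200H, and single libraries lead Tshr.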

How the data were processed

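RNA-seq counts of pituitary, hypothalamus and ovary from 69 libraries were used as deposited. Per the labels and methods, the authors aligned reads with STAR (2.7.1a) to mm10/GRCm38. Young libraries were rRNA-depleted and stranded, and older libraries were poly(A)-selected and unstranded. The authors counted older pituitary and hypothalamus with HTSeq (0.9.1) and the rest with featureCounts, so the deposited values are raw counts per gene. The deposited tables also held 3 count columns matched to no sample given here, 138 normalized columns and columns of the authors' own comparisons (fold changes and p-values), none of which was used. Of the libraries, 66 stood in more than 1 table with identical counts.

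Members, lists and tests were chosen with earlier results of these data known. Each pair of genotypes was fitted within a tissue and cohort with edgeR (4.0.16, R 4.3.3): TMM scaling, filterByExpr, quasi-likelihood F test, Benjamini-Hochberg adjustment over all genes tested, threshold 0.05. The SE is the log2 fold change over the root of F. Levels are TMM-scaled CPM. Correlations used log2(CPM + 0.5). Alternatives were DESeq2 (1.42.0), RLE scaling, no filter, a single fit of the 3 genotypes, a replicate block and leaving out each library. Scripts were tested on simulated data. Named besides the members are Zeb1, list genes called in 200M pituitary in both cohorts in one direction, the 10 genes most like Tshb in hypothalamus, and leading or near-absent markers. Prl, Gh, Cck, Tspan2 and the genes shared by the tanycyte and pituicyte lists were added after their values were seen. Some items the rule names are withheld and not reported here. Within groups 99 pairs of libraries differed by more than sampling noise (lowest chi-square per degree of freedom 1.87). The study's methods state that tissue replicates were taken from separate mice.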

Additional observations from a re-analysis of the deposited data

Results flagged for a closer look

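Among 97 groups of 4 libraries in which a member's level was examined for a single far value, 2 were marked, and chance marks about 1 group in 20. Tshr in older ovary WT replicate 1 was at 12.7 CPM, where the other WT libraries were at 0.550 to 1.11 CPM. Trhr in older pituitary 200H replicate 3 was at 8.52 CPM, where the other 200H libraries were at 9.84 to 10.1 CPM, and it lay above every WT library.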

How the results depend on the processing

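The counts of members passing the edgeR test kept to within 1.5 times under every alternative in young and older pituitary against WT. Elsewhere they moved, with a change of fit, as follows. Without the expression filter the counts were 2 for older pituitary 200M against 200H (549 of 29840 genes) and 3 for young hypothalamus 200M against 200H (13 of 31591). In older hypothalamus they were 1 for 200H against WT (97 of 31541 genes) and 1 for 200M against 200H (1325 of 31108). In ovary they were 2 and 1 for young 200M and 200H against WT (845 of 51368 and 241 of 51564 genes), and 1 for older 200M against WT (518 of 36788). By DESeq2 the counts were 0 for young hypothalamus 200M and 0 for 200H against WT (0 of 32313 and 1 of 32146 genes). They were 2 for older ovary 200M against WT (1329 of 36263 genes) and 2 against 200H (864 of 36955). With the 3 genotypes in one fit they were 0 for young hypothalamus 200H, 1 for older ovary 200M against WT and 0 against 200H. The cause of these moves was not tested, and nothing particular to the members is read from them.

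With the replicate number as a block the counts were 5 and 4 in young pituitary 200M and 200H against WT (in 200M Tshb at 0.61, adjusted p = 0.000333, and Stra6 at 1.03, adjusted p = 0.00830, joined and Lrat fell under the filter, with 6 members tested, and in 200H Stra6 at 0.91, adjusted p = 0.0316, and Thrb at -0.35, adjusted p = 0.0121, joined and Lrat was lost, adjusted p = 0.134), 3 in older 200M (Thrb -0.78, adjusted p = 8.07e-05) and 2 in older 200H, 3 in young hypothalamus 200M, and 0 in older ovary 200M against 200H (Stra6 adjusted p = 0.140). Over all genes the block called 2691 of 18291 and 1678 of 18154 in young pituitary 200M and 200H, and 3584 of 14294 and 1387 of 14922 in older. It called 11 of 14988 in young hypothalamus 200M and 77 of 17855 in older ovary 200M against 200H. The block also ended the 200M pituitary calls of young Adcy1 (adjusted p = 0.0864), Rarg (0.0708) and Rai1 (0.121) and of older Rarg (0.0686). The numbers do not mark a pairing: over 64 same-numbered pairs r ran from -0.64 to 0.44 with a median of -0.01, 13 were over 0.1, and a sample correlated best with its own number in 28 of 128 cases.

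Leaving out 1 library gave counts of 3 to 5 and 2 to 4 in young pituitary 200M and 200H, 2 to 3 in older 200M, 0 to 1 in older 200M against 200H, 0 to 2 and 0 to 1 in young hypothalamus 200M and 200H, 0 to 2 in young ovary 200M, 0 to 1 in older ovary 200M against WT and 0 to 1 against 200H, and 0 to 1 for the ovary interaction. Tshr in young pituitary 200M went from 0.22 to -0.12 (adjusted p = 0.856) without 200M replicate 2 and ranged up to 0.38 with another library left out. The mean r over pairs of members was 0.01 to 0.18 in young and 0.05 to 0.11 in older hypothalamus with 1 library left out. It was 0.08 by Spearman's rho in the young, 0.13 with genotype means removed in the older, and 0.01 and 0.05 without the 2 libraries farthest from the median of Tshb. Of 1138 single-gene alternatives, 1055 were counted as unchanged, 48 as weaker, 30 as stronger, 1 as reversed and 4 as moved. In hypothalamus, where members carry no p, that count did not require the same sign. Dio2 in older 200M, for example, ran from -0.35 to 0.23 and was counted as unchanged throughout. Counts were few for Tshb in young WT hypothalamus (0 to 3 a library) and for Lrat in young WT pituitary (2 to 4 a library), which limits the precision of both.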
